A study of Mus musculus with 6 samples.

Results

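Aminoacyl-tRNA synthetases were followed in mouse CD8+ T cells treated with sphingosine-1-phosphate (S1P) or with vehicle. The set holds 35 genes chosen by name, and all 35 were among the 56941 genes of the deposited count table and among the 13299 genes with enough counts to be tested. It divides into 19 cytosolic members and 16 mitochondrial members, the latter with symbols ending in 2. Older symbols without the final 1 were taken as the same gene, and each Ensembl identifier was matched to its symbol in the GENCODE vM39 annotation of GRCm39.

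RNA was sequenced from 6 samples, 3 vehicle-treated and 3 S1P-treated, which the labels call biological replicates without naming an animal or culture of origin. The labels give naive CD8+ T cells purified from B6 mouse spleen as the starting cells, whereas the methods of the study allow either purified naive T cells or unsorted spleen cells and do not say which were sequenced. Both groups were activated with antibodies to CD3 and CD28 in the presence of IL-2 for 3 days, and 24 h into activation the cultures received either vehicle or S1P at 5 µM. No genotype, transgene or age separates the groups, so the comparison asks only how added S1P, a lipid that signals through receptors such as S1PR1, altered the transcripts of activated cells.

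Each synthetase joins an amino acid to its matching tRNA and so supplies the ribosome with its building blocks. Most amino acids have a nuclear gene for the cytosolic enzyme and another nuclear gene for the enzyme that is imported into mitochondria, where a separate ribosome makes a few subunits of the respiratory chain. In many cells the cytosolic synthetase genes belong to the transcripts that the transcription factor ATF4 raises when amino acids run short or the endoplasmic reticulum is stressed.

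Total counts were between 13636095 and 17089831 in vehicle-treated and between 12048880 and 17384084 in S1P-treated samples, and S1P replicate 2 was the smallest library. The mitochondrially encoded genes took 4.10% to 4.64% of the counts in vehicle-treated samples. They took 4.49%, 7.80% and 4.93% in S1P replicates 1, 2 and 3, so replicate 2 stood apart, and where a synthetase gained or lost its call without it, this is given. The summed CD8 T cell markers were at 3189 to 3891 CPM (counts scaled to a common library size) with vehicle and 3008 to 3151 with S1P. Of these markers Gzmb had the highest counts. Cd8a and Cd8b1 fell by 0.67 and 0.55 on the log2 scale, and Cd3d and Cd3g were at -0.28 and -0.21. Cd3e, Trac and Gzmb were at 0.15, -0.08 and -0.10, with overlapping groups. All 6 B cell markers were detected, at a sum of 599 to 761 and 611 to 651 CPM, as were Cd4 and the other CD4 T cell markers, at 216 to 259 and 240 to 280 CPM. Of the B cell markers Ms4a1 and Cd22 fell by 0.39 and 0.44, and Pax5 was at 0.33, with every S1P sample above every vehicle sample but not past the adjusted p (0.0699, edgeR). Of the CD4 T cell markers Zbtb7b rose by 0.37, while Cd4 and Foxp3 were at 0.10 and 0.02, with overlapping groups. Myeloid, NK and erythroid markers reached at most 8, 12 and 6 counts per gene and sample. What part the accompanying B and CD4 T cells had in the results was not tested. In bulk RNA, fewer cells of a type cannot be told apart from less RNA per cell.

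Among the mitochondrial synthetases several fell after S1P and none rose. The cytosolic ones changed in each direction by small amounts, in shares near those of all genes tested at the fold threshold used here. A gene was called when edgeR's quasi-likelihood test gave a Benjamini-Hochberg adjusted p of at most 0.05 over all genes tested and the log2 fold change was at least 0.3 in size. Of the 16 mitochondrial members 6 (37.5%) were called lower, against 10.4% of all genes tested, and 0 were called higher, against 12.7% (23.1% in either direction). Of the 19 cytosolic members 2 were called higher and 2 lower (10.5% each), near the 12.7% and 10.4% of all genes tested. The median log2 fold change was -0.30 over the mitochondrial members, -0.02 over the cytosolic members and 0.01 over all genes tested. Without Lars2, which is treated apart from the others, 5 of 15 mitochondrial members (33.3%) were lower and the median was -0.26. No mitochondrial member had a log2 fold change above 0 at an unadjusted p under 0.05, and DESeq2 also called 0 higher.

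The positions of the single samples were then compared. In 10 of the 16 mitochondrial members every S1P sample lay below every vehicle sample, and in 0 did every S1P sample lie above. For the 19 cytosolic members the counts were 6 below, 7 above and 6 with overlapping groups. Over all genes tested, the groups were apart in this way in 22.6% of genes with S1P below and 23.0% with S1P above, 45.6% in all. The cytosolic shares in each direction were above these.

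**Figure D1:**
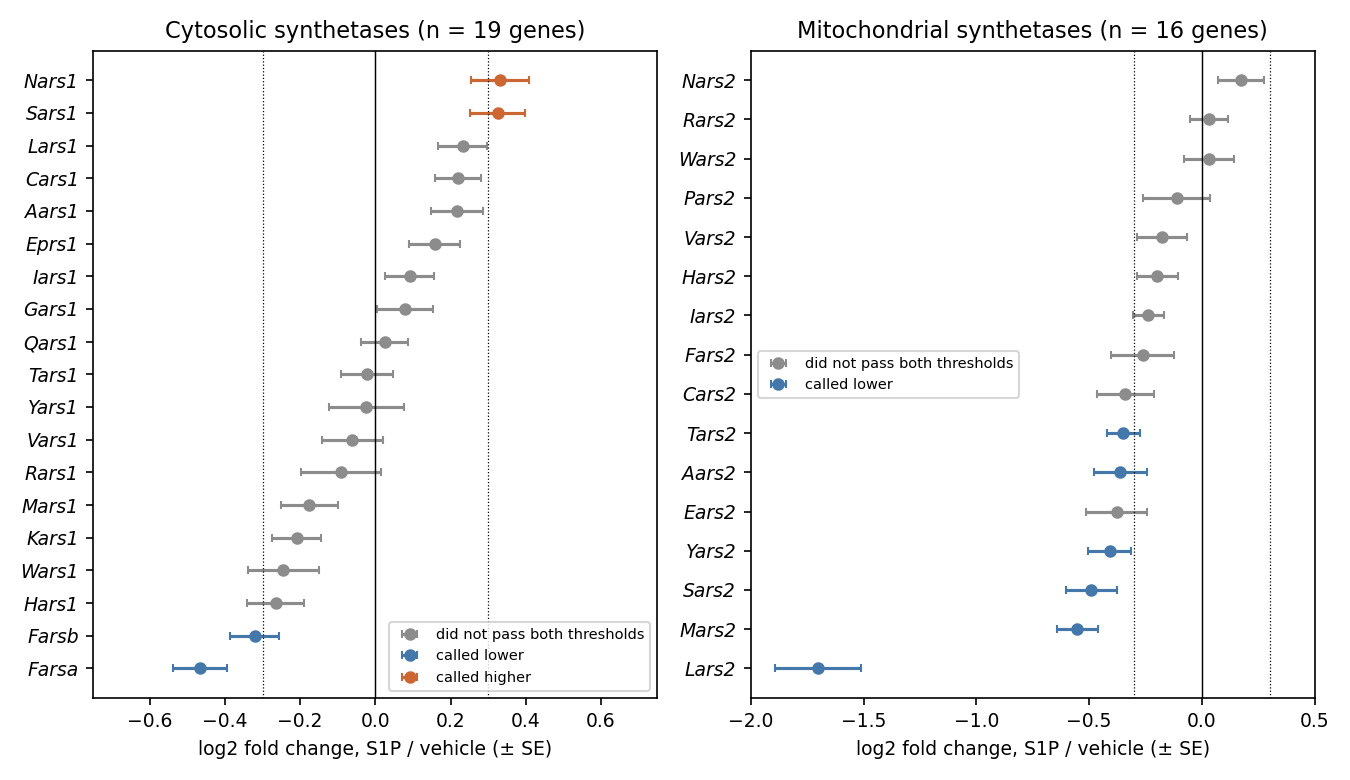
Log2 fold change of S1P over vehicle (x axis, log2 scale) for each of the 19 cytosolic (one panel) and 16 mitochondrial synthetase genes (other panel), with bars of 1 standard error from edgeR and dotted lines at the threshold of 0.3 in size. Colours mark genes called lower, higher or neither, and Lars2 at -1.70 lies far from the others, which span -0.55 to 0.33.

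The largest fall among the mitochondrial members, apart from Lars2, was that of Mars2, the methionyl-tRNA synthetase of mitochondria (chr1:55276336-55287629, GRCm39). Its normalised count, scaled by library size and TMM factor, was 554.4, 554.9 and 516.4 in vehicle-treated and 383.2, 328.2 and 394.1 in S1P-treated samples. The groups did not overlap, and the vehicle samples lay close together. The log2 fold change was -0.55 (SE 0.09), with an adjusted p of 0.00116 by edgeR.

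Sars2, the seryl-tRNA synthetase of mitochondria (chr7:28441392-28454494), was at 237.4, 236.9 and 258.2 normalised counts with vehicle and at 188.3, 152.0 and 178.2 with S1P. It fell by 0.49 in log2 terms (SE 0.11), at an edgeR adjusted p of 0.00767. Yars2, which charges mitochondrial tRNA with tyrosine (chr16:16120366-16157367), went from 507.5, 487.7 and 499.5 to 402.8, 323.1 and 396.4. All S1P samples were below all vehicle samples for both genes. The log2 fold change of Yars2 was -0.41 (SE 0.10, edgeR adjusted p = 0.00851).

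Tars2, the threonyl-tRNA synthetase of mitochondria (chr3:95647269-95667518), had 1089, 1001 and 1129 normalised counts with vehicle and 876.0, 804.4 and 845.3 with S1P. Its log2 fold change was -0.35 (SE 0.07, edgeR adjusted p = 0.00506). Mars2, Sars2, Yars2 and Tars2 were called lower whichever of the 6 samples was left out. Aars2, the alanyl-tRNA synthetase of mitochondria (chr17:45817749-45832900), was less firm. It read 169.4, 174.0 and 187.1 with vehicle and 143.3, 125.1 and 142.8 with S1P, with a log2 fold change of -0.36 (SE 0.12) at an edgeR adjusted p of 0.0379. DESeq2 gave an adjusted p of 0.0807, and the call held in 1 of 6 fits that left out a sample, the one without S1P replicate 1.

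Another 4 mitochondrial members had non-overlapping groups without being called. Iars2, for isoleucine, passed on the adjusted p (0.0232, edgeR) with a log2 fold change of -0.24, under the fold threshold. Its normalised counts were 1850, 1788 and 1671 with vehicle and 1574, 1460 and 1463 with S1P. Ears2, which makes glutamyl-tRNA in mitochondria, was at 160.2, 128.1 and 145.9 and at 114.6, 118.8 and 101.7, a difference of -0.38 with an edgeR adjusted p of 0.0571. Without S1P replicate 2 Ears2 was called lower, at -0.42 with an edgeR adjusted p of 0.0437. The S1P samples were all below the vehicle samples for both, though for Ears2 by a narrow margin. Cars2, for cysteine, differed by -0.34 (edgeR adjusted p = 0.0639), or by -0.46 without S1P replicate 1, where it was called lower at an edgeR adjusted p of 0.0170, and by -0.20 (edgeR adjusted p = 0.124) without S1P replicate 2. Hars2, for histidine, differed by -0.20 (edgeR adjusted p = 0.12).

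In the remaining 6 mitochondrial members the groups overlapped. The log2 differences were -0.26 for Fars2 (phenylalanine), -0.18 for Vars2 (valine), -0.11 for Pars2 (proline), 0.03 for Wars2 (tryptophan), 0.03 for Rars2 (arginine) and 0.17 for Nars2 (asparagine). None passed the adjusted p. Nars2 had the highest value of the class, at 258.3, 264.7 and 238.5 normalised counts with vehicle and 258.7, 291.1 and 311.9 with S1P. The SE of these genes bounds what could be seen, since the median SE was 0.11 over the mitochondrial and 0.07 over the cytosolic members, with 89 to 2206 raw counts per sample for mitochondrial members other than Lars2 and 619 to 12745 for cytosolic members.

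S1P replicate 2 gave the lowest of the S1P values in all 6 mitochondrial members called lower, in 13 of the 16 mitochondrial members and in 10 of the 19 cytosolic members. Without it the mitochondrial members had a median of -0.21 and the cytosolic members one of 0.05 (log2 fold change). The number of mitochondrial members called lower was 5 to 7 when any 1 sample was left out.

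**Figure D2:**
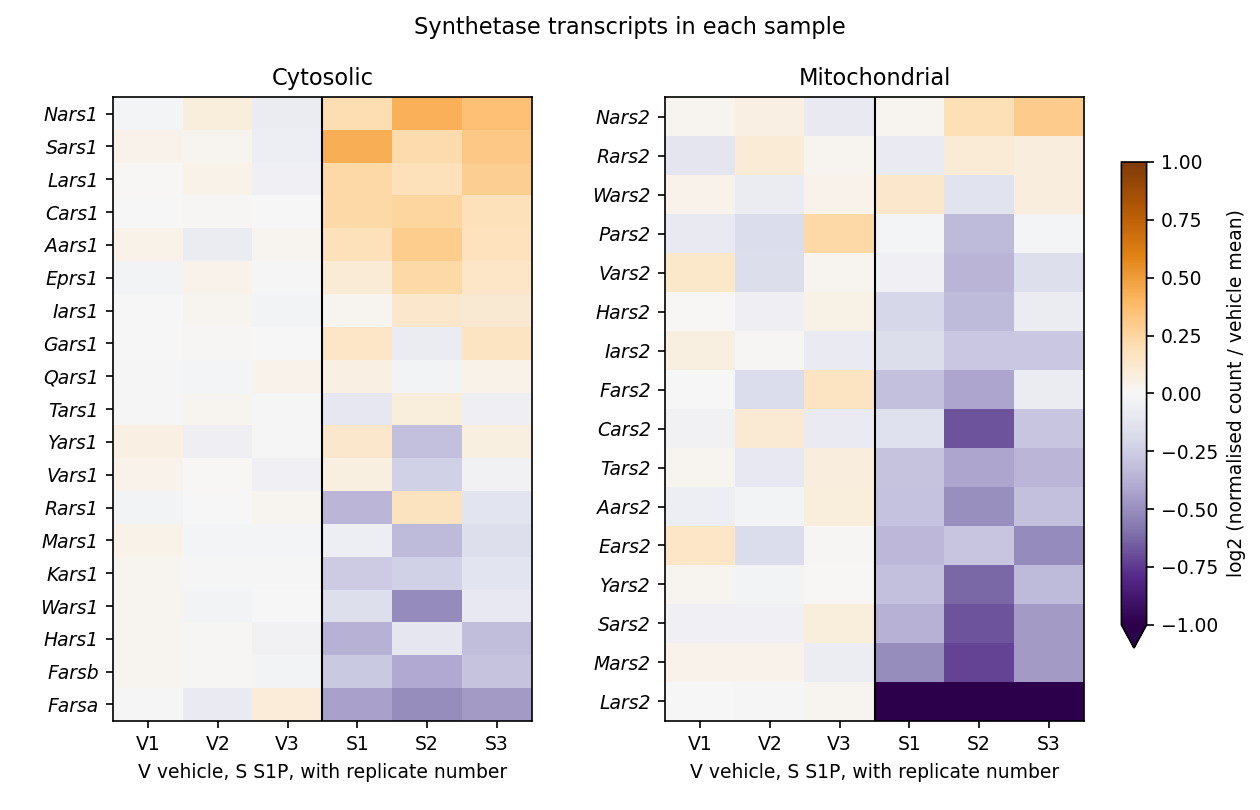
Heat maps of the 35 synthetase genes (y axis) in 3 vehicle (V1 to V3) and 3 S1P (S1 to S3) samples (x axis), coloured by log2 of the normalised count over the vehicle mean, with the colour scale ending at -1 and 1. In the mitochondrial panel the S1P columns are mostly below 0, most of all S2, and in the cytosolic panel both colours appear.

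Lars2, the leucyl-tRNA synthetase of mitochondria (chr9:123195952-123291731), was examined for reads that resemble ribosomal RNA. Its normalised count was 9896, 9858 and 10075 in vehicle-treated and 4224, 2042 and 2870 in S1P-treated samples, or 9943 ± 116 and 3045 ± 1102 (SD, n = 3). The vehicle samples were nearly equal, and all 3 S1P samples were far below them and spread apart. The log2 fold change was -1.70 (SE 0.19, edgeR adjusted p = 0.000123), and it was -2.02 to -1.48 when 1 sample was left out. Lars2 supplied 58.0%, 58.4% and 58.7% of the counts of the 16 mitochondrial members with vehicle and 40.6%, 26.5% and 31.8% with S1P.

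The level of Lars2 was unlike that of its class. At 38.6 CPM per kilobase of merged exons in vehicle-treated samples it was ninth in order among the 35 genes, while the median level was 3.00 over the other mitochondrial members and 32.5 over the cytosolic members. Per kilobase of the canonical transcript, a length chosen after the data were seen, its level was 174 and the highest of all 35, and the highest level of another mitochondrial member was 29.2.

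A gene annotated as ribosomal RNA fell in the same samples. Rn18s-rs5, an 18S rRNA gene, had 78339, 81655 and 74013 normalised counts with vehicle and 40673, 31271 and 28408 with S1P. These groups were also well separated, with a log2 fold change of -1.22 (SE 0.12, edgeR adjusted p = 6.62e-05). For every 100 counts of Rn18s-rs5 there were 12.6, 12.1 and 13.6 counts of Lars2 with vehicle and 10.4, 6.53 and 10.1 with S1P, so Lars2 fell further. The mitochondrial rRNAs went the other way, mt-Rnr1 by 0.50 and mt-Rnr2 by 0.32 on the log2 scale, with adjusted p of 0.0031 and 0.0195 by edgeR. The mt-Rnr1 call held in 6 of 6 fits that left out a sample and the mt-Rnr2 call in 1 of 6, with a log2 fold change of 0.27 to 0.38 over these fits. S1P replicate 2 had the highest value of both. The libraries were selected for polyadenylated RNA, and Rn18s-rs5 took 0.513% to 0.561% of the counts with vehicle and 0.195% to 0.286% with S1P.

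The last exon of Lars2, exon 21 of 21, holds a stretch of 398 bases at chr9:123290857-123291254 (GRCm39, plus strand) in its 3′ UTR, past the coding end at 123290740. Parts of it had 19 matches of 90.3% to 99.3% identity elsewhere in the genome, on 13 chromosomes or scaffolds that include chromosome 9 itself. Each match was 50 to 244 bases long and so covered only part of the stretch. The Lars2 transcript had 0 matches to Rn18s-rs5. The 28S rRNA was not compared, and 1.27% of the 31-base stretches of the Lars2 transcript occur in exons of other genes, on either strand. The counts are per gene, so how many Lars2 reads fell on this stretch, and what part rRNA-like reads had in the fall, was not tested.

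**Figure D3:**
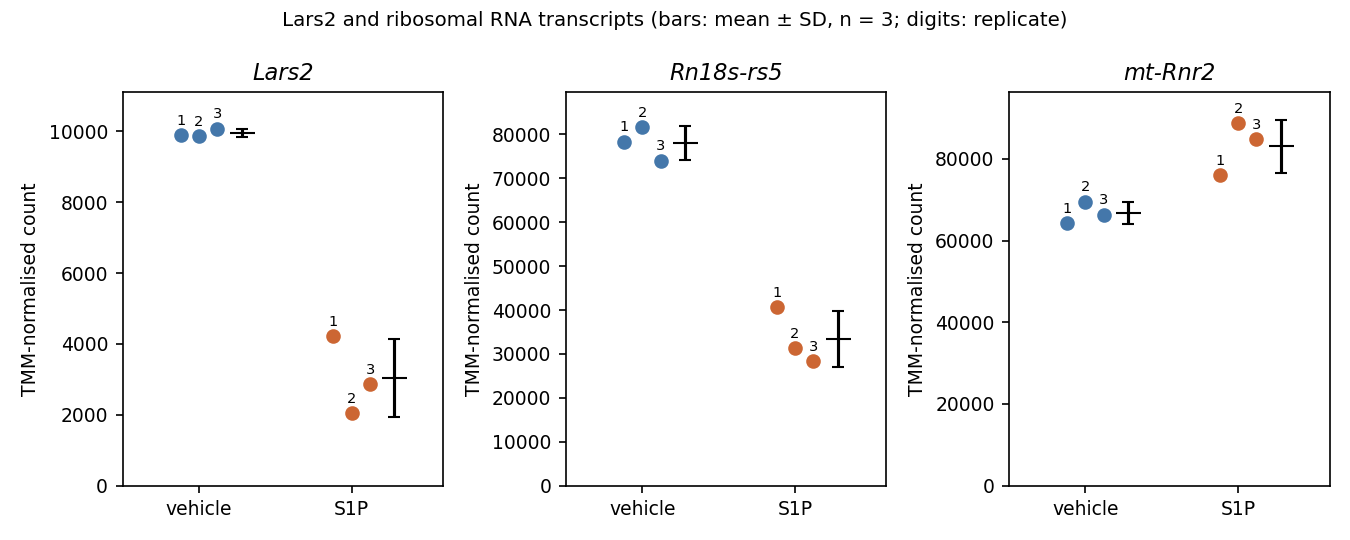
TMM-normalised counts (y axis) of Lars2, Rn18s-rs5 and mt-Rnr2 in each of 3 vehicle and 3 S1P samples (points), with the mean and SD of each group (n = 3). Lars2 went from 9943 to 3045 on average and Rn18s-rs5 fell in every S1P sample, while mt-Rnr2 was higher in every S1P sample.

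Among the cytosolic members, the asparaginyl-tRNA synthetase gene Nars1 (chr18:64632718-64649723) and the seryl-tRNA synthetase gene Sars1 (chr3:108332181-108352701) rose. Nars1 had 5680, 6086 and 5469 normalised counts with vehicle and 6630, 7725 and 7350 with S1P. Sars1 had 3086, 3070 and 2887 with vehicle and 4064, 3510 and 3749 with S1P. All S1P samples were above all vehicle samples for both genes. Each had a log2 fold change of 0.33, with an SE of 0.08 for Nars1 and 0.07 for Sars1 and edgeR adjusted p of 0.00841 and 0.00657. Each call held in 4 of 6 fits that left out a sample. Neither gene was called without vehicle replicate 3, Sars1 alone was lost without S1P replicate 1, and Nars1 alone without S1P replicate 2, so that 0, 1 and 1 cytosolic members remained higher.

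Farsa and Farsb, the genes of both subunits of cytosolic phenylalanyl-tRNA synthetase, fell. Farsa (chr8:85583610-85595887) went from 1111, 1060 and 1191 normalised counts to 827.7, 790.4 and 814.5, with a log2 fold change of -0.47 (SE 0.07) at an edgeR adjusted p of 0.000795. Farsb (chr1:78392766-78465534) went from 2549, 2537 and 2465 to 2089, 1900 and 2052, with -0.32 (SE 0.07, edgeR adjusted p = 0.00403). The groups were apart for both subunits. The Farsa call held whichever sample was left out, and the Farsb call was lost without S1P replicate 2 and with upper-quartile scaling.

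Several other cytosolic members passed the adjusted p with a log2 fold change under 0.3. Lars1 (leucine) was at 3825, 3929 and 3699 normalised counts with vehicle and 4467, 4341 and 4640 with S1P, a log2 fold change of 0.23. Cars1 (cysteine) was at 0.22 and Aars1 (alanine) at 0.22, with edgeR adjusted p of 0.0196 and 0.0333. On the other side, Hars1 (histidine) was at -0.27 and Kars1 (lysine) at -0.21, with edgeR adjusted p of 0.0233 and 0.0329. Without S1P replicate 2 Hars1 was called lower, at -0.35 with an edgeR adjusted p of 0.000479. On the adjusted p alone, 5 of the 19 cytosolic members were higher and 4 lower, against 14.7% and 13.8% of all genes tested. Both cytosolic shares were above those of all genes tested here, unlike the shares that also needed the fold threshold. For the 16 mitochondrial members these counts were 0 higher and 7 lower.

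The other cytosolic members did not pass. Eprs1, which charges both glutamate and proline, was at 0.16 and Iars1 (isoleucine) at 0.09, each with every S1P sample above every vehicle sample. For Iars1 the margin was very narrow, with 5697 normalised counts in S1P replicate 1 and 5695 in vehicle replicate 2. Wars1 (tryptophan) was at -0.24 and Mars1 (methionine) at -0.18, each with every S1P sample below, and without S1P replicate 2 they were at -0.13 and -0.10. Gars1 (glycine), Qars1 (glutamine), Tars1 (threonine), Yars1 (tyrosine), Vars1 (valine) and Rars1 (arginine) had overlapping groups and log2 differences of -0.09 to 0.08. Without S1P replicate 2, Gars1 was at 0.15 and Rars1 at -0.24. Both then passed the edgeR adjusted p (0.0430 and 0.0156) but stayed under the fold threshold. Without S1P replicate 3, Gars1 was at 0.03. Rars1 was uneven among S1P samples, at 2661, 3792 and 3090 normalised counts beside 3322, 3378 and 3455 with vehicle.

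The cytosolic members were also divided by complex and by catalytic fold. Of the 7 members of the multi-synthetase complex, a particle that holds several synthetases together, 0 were called in either direction, and their median log2 fold change was 0.02. At an unadjusted p under 0.05, 2 of these were higher and 2 lower, and DESeq2 called 0. All 4 called members were among the 12 cytosolic synthetases outside that complex, whose median was -0.02. That is 16.7% of the 12 in each direction, near the 12.7% higher and 10.4% lower among all genes tested. By the fold of the catalytic domain, 0 of 9 class I enzymes were called by edgeR or DESeq2, and 2 were higher and 2 lower at an unadjusted p under 0.05. Of the 9 class II enzymes 2 were called higher and 2 lower (22.2% each). With so few genes in each group these counts set no group apart. Kars1 and Gars1, single genes that serve both cytosol and mitochondria, were at -0.21 and 0.08.

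Levels were compared per length. In vehicle-treated samples the cytosolic members lay between 7.37 CPM per kilobase of merged exons (Cars1) and 73.2 (Nars1). Per kilobase of canonical transcript the range was 16.95 (Cars1) to 164 (Gars1), with Nars1 at 144. Their summed level was 4711 to 4813 CPM with vehicle and 4639 to 4969 with S1P, so these ranges overlapped. The mitochondrial members other than Lars2 summed to 482 to 500.2 CPM with vehicle and to 433.5, 368 and 421 with S1P, all below the vehicle samples.

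A comparison within each sample took the ratio of the cytosolic to the mitochondrial gene for the same amino acid, which does not depend on library scaling. Of 17 such pairs, the ratio was higher in every S1P sample in 10, lower in every S1P sample in 2 and overlapping in 5, with a median log2 difference of 0.33. The 10 include Lars1 to Lars2. For single genes, the groups were apart in 45.6% of all genes tested. The share for ratios of other gene pairs was not measured, so the count of 10 has no reference value. With 3 samples against 3 the smallest p of the exact two-sided permutation test is 0.1, and the smallest adjusted over the 17 pairs was 0.142, so no pair could pass 0.05. Pairs that share a gene (Fars2, Eprs1) are not independent.

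The serine pair had a log2 ratio of Sars1 to Sars2 of 3.69, 3.68 and 3.47 with vehicle and 4.42, 4.51 and 4.38 with S1P. This was the largest shift, at 0.82, after the 2.00 of Lars1 to Lars2. The ratios for cysteine, alanine and glutamate (Eprs1 to Ears2) shifted by 0.59, 0.58 and 0.52. The ratios that were lower in every S1P sample were Wars1 to Wars2, by -0.28, and Farsa to Fars2, by -0.21.

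**Figure D4:**
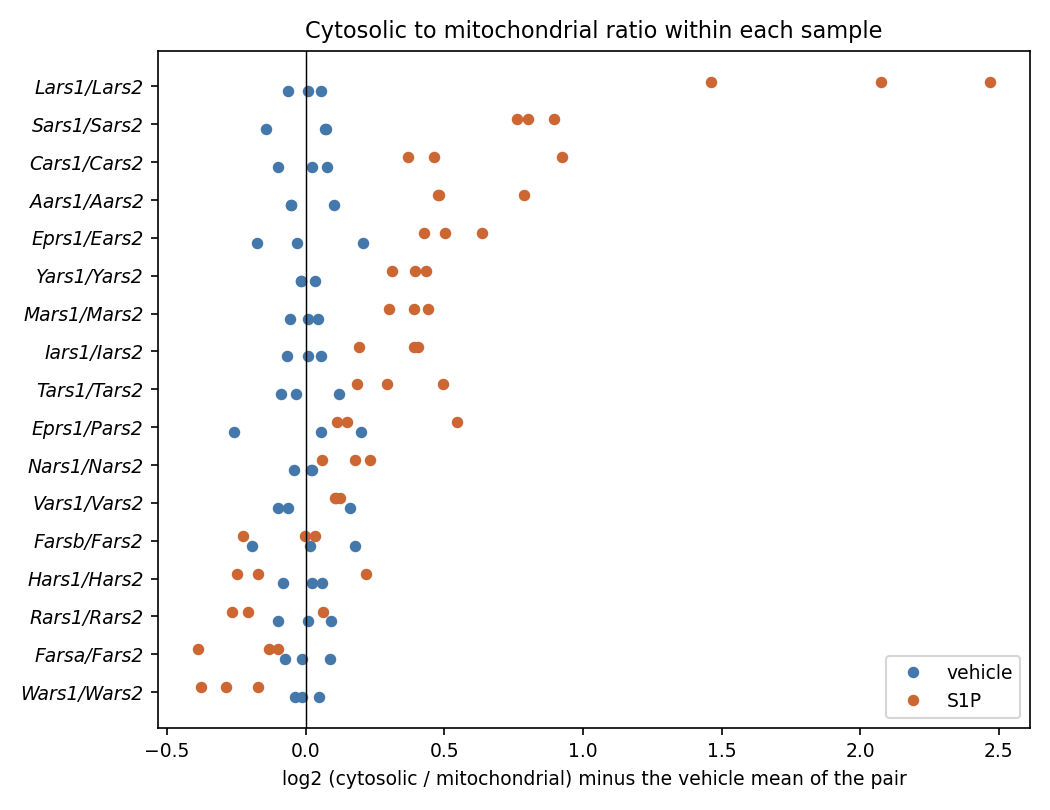
Log2 ratio of the cytosolic to the mitochondrial synthetase for the same amino acid in each sample, minus the vehicle mean (x axis, log2 scale), for 17 pairs of genes (y axis), with one point per vehicle or S1P sample. S1P samples lie above all vehicle samples in 10 pairs, most of all for Lars1 to Lars2, and below in 2. The share for other gene pairs was not measured.

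Of 17 genes that act with the synthetases, 3 fell (17.6%, against 10.4% of all genes tested) and 0 rose (against 12.7%), with a median log2 fold change of -0.09, and no gene was higher at an unadjusted p under 0.05 or by DESeq2. Tufm, the elongation factor that brings charged tRNA to the mitochondrial ribosome, was at 1434, 1402 and 1456 normalised counts with vehicle and 1122, 992 and 1093 with S1P, a log2 fold change of -0.42 at an edgeR adjusted p of 0.0012. Qrsl1, a subunit of the amidotransferase that turns glutamyl-tRNA into glutaminyl-tRNA in mitochondria, fell by 0.47, and the other subunits were at -0.09 for both Gatb and Gatc. Eef1e1, a scaffold protein of the multi-synthetase complex, fell by 0.31 (edgeR adjusted p = 0.0064), a call that held in 3 of 6 fits that left out a sample and was lost without vehicle replicate 3, S1P replicate 1 or S1P replicate 2, while the scaffold genes Aimp1 and Aimp2 were at 0.04 and -0.03. The cytosolic elongation factor Eef1a1 was at 0.18 and the tRNA exporter Xpot at 0.02, neither past the adjusted p. The calls of Tufm and Qrsl1 held in 6 of 6 fits, and the count of falls was 2 to 5, with 5 without S1P replicate 3.

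The cytosolic synthetases were also set beside a list of genes of the ATF4 response. It holds amino acid and one-carbon genes, Atf4 itself and the stress genes Ddit3, Trib3, Chac1, Sesn2 and Ddit4. The study singled out Ddit3, Trib3 and Chac1 in these samples, so the direction of the list is not independent evidence. Of 17 genes on it 8 rose (47.1%, against 12.7% of all genes tested) and 0 fell (against 10.4%), with a median of 0.24. Those that rose were the 5 stress genes and the amino acid genes Asns, Slc7a11 and Pycr1. The other amino acid and one-carbon genes on the list were not called. Asns, asparagine synthetase, was at 1286, 1537 and 1170 normalised counts with vehicle and 2584, 2098 and 2309 with S1P, a log2 fold change of 0.81. Slc7a11, the cystine transporter, rose by 1.65 and Trib3, a pseudokinase that restrains ATF4, by 1.54. Atf4 itself was at 0.24 (edgeR adjusted p = 0.022), under the fold threshold, and the serine synthesis genes Psat1, Phgdh and Psph were at 0.03, -0.11 and 0.05. Of the 13 cytosolic synthetases that are commonly listed as ATF4 targets, 2 were called higher (15.4%, close to the 12.7% of all genes tested) and 0 lower, with a median of 0.09. The 0 lower held with DESeq2, and 2 of these were below 0 at an unadjusted p under 0.05. Of the other 6 cytosolic members 0 were called higher, also by DESeq2 and at an unadjusted p under 0.05, and 2 lower (33.3%, against 10.4% of all genes tested), with a median of -0.24. These 2 are Farsa and Farsb, subunits of the same enzyme, so they do not count as separate synthetases.

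Promoters were searched for TGATGNAA on both strands, the letters of the composite element that ATF4 and its C/EBP partners are known to bind, in the RefSeq promoter windows from 250 bases before to 50 after each start (GRCm38.p6). The letters occurred in 5 of the 12 cytosolic members with an entry (41.7%), in 0 of 14 mitochondrial members with an entry and in 4.51% of all 27025 genes in the table. The stretches of 30 bases around the matches are shown on the strand of the gene, 5′ to 3′, with the match in capitals, because they are what these genes share, for 4 of the 5 synthetases. Asns and Slc7a11, which hold it and rose, follow as examples, with 1 of 2 matches shown for Slc7a11. No count of the letters over the other genes of the ATF4 list is given here.
Gars1 (chr6:55037960-55037989, plus strand): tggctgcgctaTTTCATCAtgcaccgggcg
Iars1 (chr13:49682126-49682155, plus strand): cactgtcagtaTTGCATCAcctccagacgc
Tars1 (chr15:11399655-11399684, minus strand): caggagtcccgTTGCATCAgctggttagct
Yars1 (chr4:129189895-129189924, plus strand): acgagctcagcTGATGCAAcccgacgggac
Asns (chr6:7693214-7693243, minus strand): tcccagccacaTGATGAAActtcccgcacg
Slc7a11 (chr3:50443661-50443690, minus strand): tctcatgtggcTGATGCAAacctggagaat

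None of the 5 synthetases with the letters was called, and their log2 fold changes were 0.22 (Aars1), 0.09 (Iars1), 0.08 (Gars1), -0.02 (Tars1) and -0.02 (Yars1). A match is only a run of letters. Cars1, Hars1, Lars1, Nars1, Rars1, Vars1, Wars1, Hars2 and Pars2 have no entry in the table used, Nars1 being the only called member among them.

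Some members share exon sequence with other genes, and reads from such stretches cannot be told apart by their sequence alone. Matches were sought on both strands, so opposite-strand genes at the same place enter the first of the 2 shares below as well. Of 31-base stretches in the canonical transcript, 58.1% for Yars2, 57.2% for Cars2, 55.4% for Iars2 and 33.8% for Mars2 also occur in exons of other genes, against 0% for Farsa, Farsb, Nars1 and Tars2. Genes on the opposite strand cover 47.2% of the exon bases of Mars1, 33.9% of Mars2, 31.4% of Yars2, 29.1% of Cars2, 27.4% of Iars2, 25.4% of Farsb, 22.7% of Yars1, 18.0% of Fars2 and 14.6% of Hars1, which lies head to head with Hars2. In the other members this share was lower. The libraries were strand-specific, but the strand setting of the counting is not given in the sources used here, so values of these genes are less certain.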

How the data were processed

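RNA-seq of 6 CD8+ T cell samples was analysed. The authors used Trim Galore for trimming, STAR for alignment and featureCounts for gene counts, on GRCm39 according to the submitters' processing notes, and the deposited values are whole-number counts without normalization. The annotation release and strand setting are not given in the sources used here. The authors tested with DESeq2; their results were not used. All 6 columns were read. Symbols came from GENCODE vM39 for 56323 of 56941 identifiers.

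Counts were kept by filterByExpr, scaled by TMM and tested with edgeR 4.0.16 (limma 3.58.1, R 4.3.3) by its quasi-likelihood test, with a single treatment term, and p-values of 13299 genes were adjusted by Benjamini-Hochberg. Normalised counts are CPM on TMM-scaled library sizes, multiplied by the geometric mean of those sizes. The thresholds of 0.05 for the adjusted p and 0.3 for the log2 fold change are the study's. The replicates are called biological, but nothing states separate cultures or animals, so p-values measure the spread between these samples, which may be technical. No batch is given in the labels. Levels were divided by merged exon length. Pair ratios were taken on log2 CPM (prior count 2) and an exact two-sided permutation test. Repeats in Lars2 were found with blastn 2.17.0. The edgeR fit was also run on simulated data as a check of the code, and its outcome is not reported here.

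The members and lists were chosen with earlier results of these data known, and no set test was run. Named are the 35 members, 17 partners of tRNA charging, 17 genes of the ATF4 response, the ribosomal RNA genes and cell type markers. Alternatives were DESeq2 1.42.0, limma-voom, other scalings (RLE, upper quartile, total count), other filters, the replicate block, the adjusted p alone, removal of mitochondrially encoded genes and each sample left out. Removal of Rn18s-rs5 and Lars2 and canonical transcript length were added after seeing the data. The promoter stretches of 1 gene are not reported here.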

Additional observations from a re-analysis of the deposited data

How the results depend on the processing

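Of the 10 members called, 7 to 10 were called under each alternative, and the median log2 fold change stayed between -0.34 and -0.21 for mitochondrial and between -0.05 and 0.05 for cytosolic members, where its sign changed. Cytosolic members called higher numbered 1 without a filter, 5 on the adjusted p alone and 0 to 2 when 1 sample was left out, and those called lower numbered 1 with upper-quartile scaling and 4 on the adjusted p alone. Partners called lower numbered 2 to 5 when 1 sample was left out. Median levels per kilobase of canonical transcript were 65.7 for cytosolic and 4.90 for mitochondrial members. Signs reversed for Qars1 (-0.0015 by total count, -0.0042 without a filter), Tars1 (0.0014 with upper-quartile scaling) and Rars2 (-3.55e-06 without a filter). When 1 sample was left out, ranges crossed 0 for Rars1 (-0.24 to 0.0223), Tars1 (-0.0744 to 0.0175), Vars1 (-0.13 to 0.0200), Yars1 (-0.11 to 0.10), Pars2 (-0.19 to 0.0184), Rars2 (-0.0300 to 0.0872) and Wars2 (-0.0292 to 0.10). The cause was not tested. With the replicate number as a block all 10 calls were shared (2 cytosolic higher, 2 lower, 6 mitochondrial lower). Same-numbered samples correlated at 0.12, -0.01 and 0.05 in their deviations, and differently numbered ones at -0.10 to 0.05. With 3 samples per group, these values cannot settle whether the numbers pair the samples. Mitochondrial members other than Lars2 had 89 to 2206 raw counts per sample, and their median SE was 0.11, against 0.07 for cytosolic members.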
